A study of Caenorhabditis elegans with 14 samples.

Results

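Antisense small RNA reads were examined over 10 Argonaute genes of the nematode Caenorhabditis elegans: prg-1, csr-1, ergo-1, alg-1, alg-2, rde-1, ppw-1, ppw-2, sago-2 and wago-1. The members were chosen by name, with earlier results of these data known. They take up 17 of the 56374 transcript rows of the small RNA count tables, and 10 of the 45510 genes those rows belong to. The rows carry WormBase gene identifiers but no names for these genes, so each symbol was matched by identifier to the Ensembl 115 annotation, and all 10 matched. Reads were summed over the rows of a gene and split by strand.

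Argonautes are the proteins that hold small RNAs and are guided by them to matching RNAs. In C. elegans many of them bind secondary small interfering RNAs (siRNAs), which RNA-dependent RNA polymerases copy from a target messenger RNA, so that they are antisense to it. An Argonaute gene can itself be such a target, and the antisense reads counted over its exons are then siRNAs against its messenger RNA, while sense reads have the strand of the messenger RNA itself.

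The study asked how antisense ribosomal siRNAs are made and act, and sequenced RNA of 20 to 30 nt from embryos in 9 small RNA libraries, 1 for each group. Embryo is the source named in the labels, while the growth protocol mentions larvae on plates without food, and this conflict was not settled here. Total small RNA came from 5 of them: the wild-type strain N2, the mutant susi-1(R457H), cold-shocked N2, and eri-1(mg366);3xflag::gfp::nrde-3 without and with ultraviolet light (UV). The other 4 held small RNA pulled down through the FLAG tag of NRDE-3, an Argonaute that carries siRNAs into the nucleus: cold-shocked 3xflag::gfp::nrde-3 embryos in the N2 background, and eri-1(mg366);3xflag::gfp::nrde-3 embryos that were cold-shocked, unirradiated or irradiated. Cold-shocked embryos spent 12 h at 4 °C and then 2 h at 20 °C, irradiated ones received 50 mJ/cm2 of UV and 2 h to recover, and all others were kept at 20 °C. The eri-1 strain carries the tagged nrde-3 transgene in every library, whereas no transgene is named for the total libraries of susi-1(R457H) and of N2 with or without cold shock, so eri-1 and the transgene cannot be told apart in total RNA. Read counts cannot show the R457H substitution, and neither mutant label was checked here. With 1 library per group there was no test and no p-value. Every interval is a 95% interval of counting error only, and it leaves out the spread between cultures and between PCR copies.

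Levels are reads per 1000000 reads outside ribosomal RNA (CPM), which numbered from 357435 in NRDE-3-bound eri-1 RNA after cold shock to 3123387 in total eri-1 RNA with UV. Ribosomal RNA took 51.8% to 95.6% of a library. Embryonic microRNAs of the mir-35 family exceeded the larval microRNAs in every library, from 2293 against 439 CPM to 101992 against 61.5 CPM. The total library of N2 after cold shock stood apart: vitellogenin and sperm protein genes, markers of adults, had 17252 sense CPM in it and 161 to 1516 in the other total libraries. It also had the lowest antisense share of protein-coding reads among total libraries, 12.8% against 30.5% to 57.9%. The NRDE-3-bound eri-1 libraries without and with UV held antisense reads of 384 and 490 protein-coding genes, against 4883 to 12069 in the other 7. In such bulk samples fewer cells of a type and less RNA per cell cannot be told apart.

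The most-read member was prg-1, which encodes the Piwi protein that binds the germline's piRNAs (chromosome I, 7585329 to 7588367, minus strand, WBcel235). Its antisense reads were 268 in the N2 library, 60 in that of susi-1(R457H), 9 in cold-shocked N2, 214 in unirradiated eri-1 and 642 in irradiated eri-1, which is 250.1, 94.6, 24.4, 151 and 206 CPM. In N2 only 2.02% of the 10260 protein-coding genes with an antisense read had more. Among these 5 total libraries it was lowest in N2 after cold shock and highest in untreated N2.

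The other well-read members were csr-1 and ppw-2. The gene csr-1 (chromosome IV, 7957267 to 7962157, plus strand) encodes an essential Argonaute that binds siRNAs against germline-expressed genes, and it had 121, 35, 3, 62 and 172 antisense reads in the same order of libraries, or 113, 55.2, 8.13, 43.8 and 55.1 CPM. The gene ppw-2 (chromosome I, 5158511 to 5162232, minus strand) encodes a germline member of the worm-specific WAGO family, also known as WAGO-3, and it had 141, 14, 42, 101 and 256 reads, or 132, 22.1, 114, 71.3 and 82.0 CPM. Among the total libraries both were highest in N2, but csr-1 was lowest after cold shock and ppw-2 was lowest in susi-1(R457H). Together prg-1, csr-1 and ppw-2 made up 81.4% (interval 78.2 to 84.3) of the 651 antisense reads that the members had in N2. Their share was 71.7%, 94.7%, 77.9% and 66.8% in susi-1(R457H), cold-shocked N2, unirradiated eri-1 and irradiated eri-1.

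The remaining WAGO members had fewer reads. The gene wago-1 (chromosome I, 7235384 to 7238792, plus strand), whose protein binds secondary siRNAs in the germline, had 31, 17, 1, 28 and 88 antisense reads, or 28.9, 26.8, 2.71, 19.8 and 28.2 CPM. Its level outside the cold library stayed within 19.8 to 28.9 CPM. The gene ppw-1 (chromosome I, 4185174 to 4189956, plus strand), needed for RNA interference in the germline, had 15, 3, 1, 19 and 65 reads, or 14.0, 4.73, 2.71, 13.4 and 20.8 CPM. The gene sago-2 (chromosome I, 618160 to 621490, plus strand), which encodes another Argonaute of secondary siRNAs, had 5, 2, 0, 6 and 25 reads, at most 8.00 CPM. It lies inside eme-1 on the other strand, which had up to 33 sense reads in a library, so reads antisense to sago-2 may belong to eme-1.

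The Argonautes of primary siRNAs were also at low levels. The gene ergo-1 (chromosome V, 1008803 to 1018352, plus strand), whose protein binds siRNAs made by the ERI complex in embryos, had 23, 10, 0, 21 and 91 antisense reads, or 21.5, 15.8, 0, 14.8 and 29.1 CPM. The gene rde-1 (chromosome V, 9987916 to 9991642, minus strand), whose protein binds siRNAs cut from foreign double-stranded RNA, had 29, 6, 0, 25 and 53 reads, or 27.1, 9.46, 0, 17.7 and 17.0 CPM. For a count of 0 in the cold library the interval reaches 10.0 CPM. Both genes were read in every other total library.

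The microRNA Argonautes alg-1 and alg-2 were among the least-read members without stress and stood out with UV. The gene alg-1 (chromosome X, 13949110 to 13956261, plus strand) had 14, 3, 1, 5 and 135 antisense reads, or 13.1, 4.73, 2.71, 3.53 and 43.2 CPM. The gene alg-2 (chromosome II, 873212 to 879885, plus strand) had 4, 2, 0, 3 and 75 reads, or 3.73, 3.15, 0, 2.12 and 24.0 CPM. Among the total libraries both were highest in eri-1 with UV, the most deeply read of the total libraries. Close relatives such as alg-1 and alg-2, ppw-1 and sago-2, or prg-1 and prg-2 can share reads, and the counting of reads with several matches was not given in the sources used here, so their single values are uncertain. The relative prg-2 had 67, 8, 11, 42 and 138 antisense reads in the 5 total libraries.

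**Figure D1:**
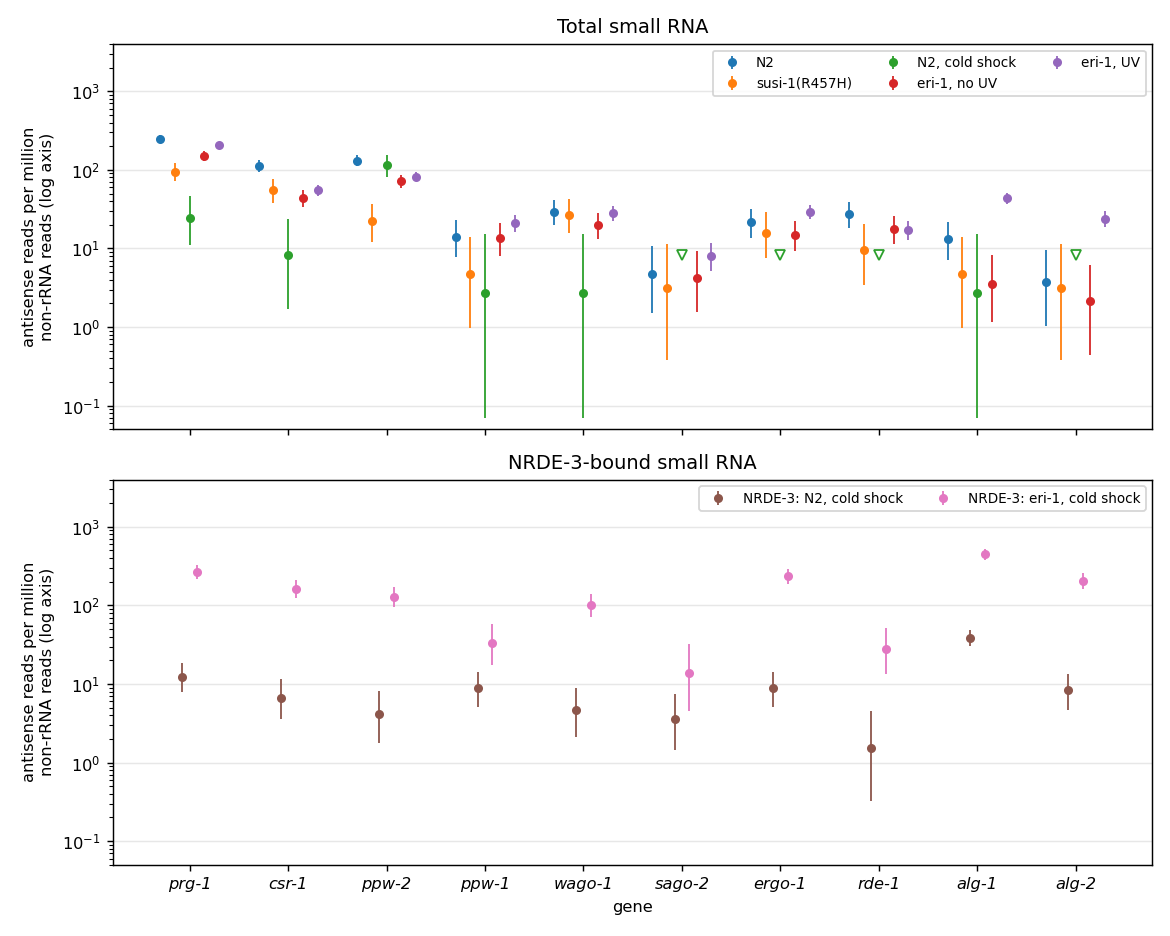
Antisense reads per 1000000 non-rRNA reads (log axis) of each Argonaute gene in 5 total (upper) and 2 NRDE-3-bound (lower) libraries, with exact 95% intervals of counting error; open triangles mark 0 reads at the 3-read floor. In total RNA prg-1, csr-1 and ppw-2 lie highest in N2, and in NRDE-3-bound RNA of eri-1 after cold shock alg-1 lies highest at 450.4 CPM.

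Per 1000 bases of exon, the order in N2 was prg-1 with 93.8 CPM per kb, ppw-2 with 40.4 and csr-1 with 30.8, followed by wago-1 with 9.47, rde-1 with 8.41, ergo-1 with 5.87, ppw-1 with 4.51, alg-1 with 1.95, sago-2 with 1.59 and alg-2 with 0.901. The first 3 stood clear of the rest, while neighbours below rest on 4 to 31 reads each. With UV in eri-1 the order began with the same members, prg-1 at 77.1, ppw-2 at 25.1 and csr-1 at 15.0 CPM per kb, and the others, sago-2 at 2.73 apart, lay between 5.27 and 9.22.

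In N2 the members fell apart by strand. Antisense reads were 89.9% (85.9 to 93.1) of all reads of prg-1, 91.0% (84.8 to 95.3) of those of csr-1, 92.8% (87.4 to 96.3) of those of ppw-2 and 69.0% (52.9 to 82.4) of those of rde-1. Reads of alg-1, alg-2, ergo-1 and wago-1 were mainly sense, with antisense shares of 16.7% (9.42 to 26.4), 10.3% (2.87 to 24.2), 19.2% (12.6 to 27.4) and 28.4% (20.2 to 37.9). Between them lay ppw-1 at 45.5% and sago-2 at 35.7%, on 33 and 14 reads. Over all protein-coding genes the share was 57.9% in N2 and over the 10 members 63.6%.

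In the other total libraries the members' antisense share lay on either side of that over all protein-coding genes. It was 32.0% in susi-1(R457H), 11.8% in cold-shocked N2, 29.9% in unirradiated and 57.5% in irradiated eri-1, beside 30.5%, 12.8%, 38.1% and 51.0% over all protein-coding genes. The gene ppw-2 had the highest antisense share after cold shock, 45.2% (34.8 to 55.8), where prg-1 had 11.8% and csr-1 3.45%.

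**Figure D2:**
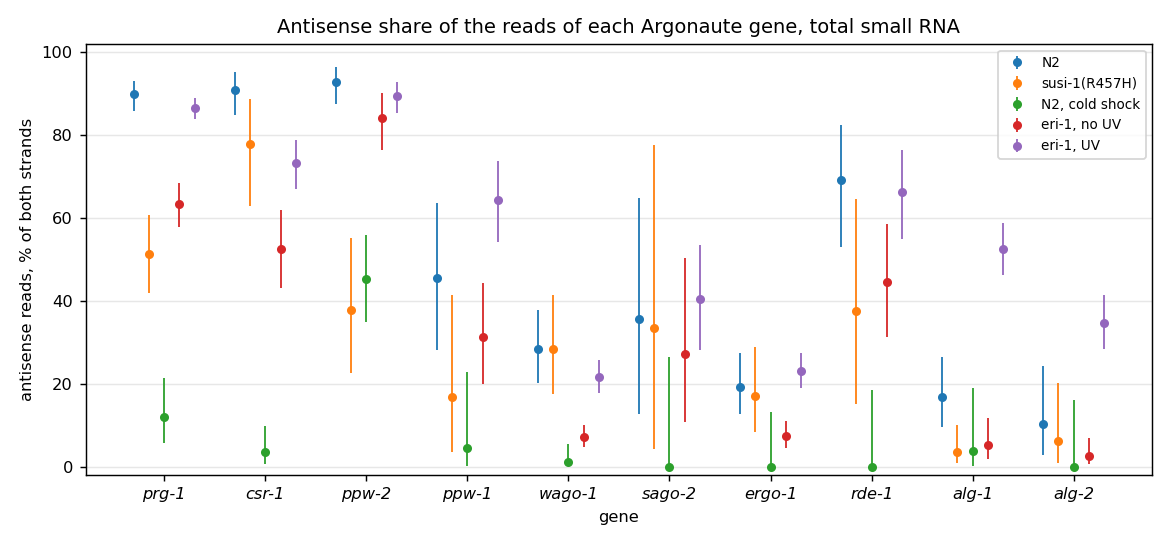
Antisense reads as a percentage of all reads of each Argonaute gene in the 5 total small RNA libraries, with exact binomial 95% intervals. In N2 prg-1, csr-1 and ppw-2 lie near 90%, and alg-1 moves from 5.21% without UV to 52.5% with UV in eri-1.

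For each comparison of 2 libraries, a gene was called higher or lower where it had at least 50 antisense reads in the pair, a ratio of CPM of at least 2 or at most 0.5, and an interval without 1. This is a rule of size. A gene with few reads in one library of a pair can reach the minimum only through the other, and then it had to differ. Members were also set against the median log2 ratio of all protein-coding genes with at least 20 reads in the pair, which does not depend on how the libraries are scaled. The comparisons of susi-1(R457H), cold shock and eri-1 with N2 share the N2 total library. The cold shock comparison and that of NRDE-3-bound with total RNA share the total library of cold-shocked N2. Total eri-1 RNA without UV serves both the UV comparison and that of eri-1 with N2. The NRDE-3-bound library of cold-shocked N2 serves both comparisons of NRDE-3-bound RNA after cold shock. Values of a member in comparisons that share a library are not independent.

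The first comparison asked what susi-1(R457H) changes in total small RNA. Antisense reads of the Argonaute genes were lower in susi-1(R457H) than in N2. Of the 10 members 3 had enough reads, and all 3 were called lower: ppw-2 by 5.96-fold (3.44 to 11.2), prg-1 by 2.64-fold (1.99 to 3.56) and csr-1 by 2.05-fold (1.39 to 3.07). Among all 1368 protein-coding genes with enough reads 71.1% were called lower and 2.19% higher, so such a call was the usual one in this pair. With 14 reads in the mutant, ppw-2 reached the minimum through N2 and could be counted only if it differed. Summed over the 10, the level was 240 CPM against 607 CPM, a 2.54-fold difference (2.12 to 3.05), and the direction turned to a ratio of 1.02 where libraries were scaled by microRNA reads. Scaled that way prg-1 stood at a ratio of 0.983 and csr-1 at 1.27. Under that scaling, DESeq2 and TMM factors and both scalings by antisense reads of protein-coding genes, with and without the 20 most-read ones, ppw-2 was still called and prg-1 and csr-1 were not.

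Against the median gene, the members of this pair spread in both directions. That median was a log2 ratio of −1.28 over 3487 genes, and the 6 members with 20 or more reads had a median of −1.21. The gene ppw-2 lay 2.37-fold below the median gene, and 12.6% of genes had a lower ratio. The genes wago-1 and ergo-1 lay 2.28-fold and 1.84-fold above it, from 17 against 31 and from 10 against 23 reads. The counts of prg-1, csr-1 and rde-1 followed the median gene within 1.20-fold. Sense reads of prg-1 were 30 in N2 and 57 in the mutant, a ratio of 3.21 (2.03 to 5.17), and those of ppw-2 were 11 in N2 and 23 in the mutant, a ratio of 3.53 (1.65 to 8.02). The share of the 10 members in all protein-coding sense reads was 0.145% in N2 and 0.134% in the mutant.

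The second comparison asked how cold shock changes total small RNA in N2. Of 3 members with enough reads, prg-1 was 10.3-fold lower (5.32 to 22.7) and csr-1 13.9-fold lower (4.64 to 68.3) after cold shock, while ppw-2 was not called, at a ratio of 0.865 (0.598 to 1.23) on 42 against 141 reads. Of 1143 protein-coding genes 94.3% were called lower and 3.50% higher, so ppw-2 was the member that departed from the usual call. Both prg-1 and csr-1, with 9 and 3 reads after cold shock, reached the minimum through N2 and could be counted only if they differed. The genes ergo-1 and rde-1 had 0 reads after cold shock. With that 0 set to a floor of 3 reads in the cold library, they were 2.64-fold and 3.33-fold lower. These folds are not interval limits. The other members had 0 or 1 read there, against 4 to 31 in N2.

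Relative to the median gene, at a log2 ratio of −2.96 over 3046 genes, ppw-2 lay 6.79-fold higher after cold shock, and 3.68% of those genes had a higher ratio than it. Of the members' antisense reads ppw-2 held 73.7% (60.3 to 84.5) after cold shock and 21.7% (18.6 to 25.0) in N2, a share that scaling does not touch. The other measured members, prg-1 and csr-1, lay 1.25-fold and 1.54-fold below the median gene. The summed level of the 10 was 154 CPM after cold shock against 607 CPM, 3.93-fold lower (3.00 to 5.25). That direction turned to ratios of 1.03, 1.15 and 1.21 where libraries were scaled by microRNA reads or by antisense reads of protein-coding genes, without or with the 20 most-read ones.

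Sense reads of several members were higher after cold shock. They were 84 against 12 for csr-1, a ratio of 20.3 (11.0 to 40.9), 51 against 11 for ppw-2, a ratio of 13.5 (6.93 to 28.7), and 67 against 30 for prg-1, a ratio of 6.49 (4.16 to 10.3). For ergo-1 they were 26 against 97, a ratio of 0.779 (0.485 to 1.21), and for alg-1 26 against 70, a ratio of 1.08 (0.660 to 1.71), and the other 5 members lay between 1.74 and 4.02. Over the 10 members the ratio of sense CPM was 3.32 (2.88 to 3.82). Their share of all protein-coding sense reads was 0.245% after cold shock and 0.145% in N2. The adult marker genes of this library, given above, moved with the members' sense reads. Their part in the members' values was not tested.

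The third comparison asked how UV changes total small RNA in eri-1. The microRNA Argonautes alg-1 and alg-2 were the members called higher with UV, at 12.2-fold (5.12 to 38.3) and 11.3-fold (3.73 to 56.2), and 7 others with enough reads were not called. Among 3802 protein-coding genes 18.9% were called higher and 0.368% lower. Both genes reached the minimum of 50 reads through the UV library, since they had 5 and 3 reads without UV, so they could be counted only if they differed. The uncalled members ran from rde-1 at a ratio of 0.961 (0.587 to 1.61) to ergo-1 at 1.96 (1.21 to 3.33), with prg-1 at 1.36, csr-1 at 1.26, ppw-2 at 1.15, wago-1 at 1.42 and ppw-1 at 1.55. Scaled by microRNA reads prg-1, csr-1, ppw-2, wago-1 and ppw-1 turned to 0.874, 0.808, 0.738, 0.915 and 0.996, also uncalled. The gene sago-2, under the minimum with 25 against 6 reads, had a ratio of 1.89 (0.756 to 5.63).

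Taken as a pair, alg-1 and alg-2 had 210 reads with UV and 8 without, a ratio of 11.9 (5.93 to 27.9), and the other 8 members had 1392 and 476, a ratio of 1.33 (1.19 to 1.47). The pair made up 13.1% (11.5 to 14.9) of the members' antisense reads with UV and 1.65% (0.716 to 3.23) without. In untreated N2 its share was 2.76% (1.65 to 4.33). Relative to the median gene, at a log2 ratio of 0.40 over 6169 genes, alg-1 lay 8.46-fold and alg-2 7.41-fold higher, and 2.67% and 2.93% of genes had higher ratios. The median of all 10 members was 0.55. Under the 6 other scalings tried, the ratio of alg-1 ran from 7.86 to 28.1 and that of alg-2 from 7.28 to 26.0.

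The sense reads of the pair did not share that difference. They were 122 with UV and 91 without for alg-1, a ratio of CPM of 0.608 (0.459 to 0.806), and 142 and 120 for alg-2, a ratio of 0.536 (0.418 to 0.690). Over the 10 members sense CPM was lower with UV at a ratio of 0.473 (0.435 to 0.513), and summed antisense CPM was 513 against 342, a ratio of 1.50 (1.35 to 1.66) that was 0.964 when scaled by microRNA reads. The members' share of all protein-coding sense reads was 0.170% with UV and 0.244% without. The antisense share of reads went from 5.21% to 52.5% for alg-1 and from 2.44% to 34.6% for alg-2. In the 2 annotated transcript rows of alg-1 the UV reads split as 66 and 69. The libraries themselves differed, with 86.2% ribosomal RNA and 25.4% microRNA among the other reads without UV, and 68.4% and 39.5% with UV, and the part of this in the members' values was not tested.

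The fourth comparison set total RNA of unstressed eri-1 against N2. Of 5 members with enough reads, csr-1 was called lower, by 2.58-fold (1.88 to 3.56), beside 21.8% of 2167 protein-coding genes called lower and 3.23% higher. That call was lost with DESeq2 factors at a ratio of 0.512, with TMM factors at 0.538 and with antisense reads of protein-coding genes at 0.633, or 0.600 without the 20 most-read ones. The ratios of prg-1, ppw-2, rde-1 and wago-1 were 0.604, 0.542, 0.652 and 0.684 and were not called. Summed antisense CPM was 342 against 607, a ratio of 0.563 (0.499 to 0.634), which stayed under 1 in every scaling tried. Scaled by antisense reads of protein-coding genes it was 0.919 (0.815 to 1.04), an interval that holds 1. Relative to the median gene, at −0.53 on the log2 scale over 4508 genes, csr-1 lay 1.77-fold lower and ppw-1 1.38-fold higher, and the other 5 members with 20 or more reads within 1.27-fold. The gene ergo-1, whose protein acts in the pathway that eri-1 belongs to, had 21 and 23 reads and a ratio of 0.691 (0.364 to 1.31). Sense reads were higher in eri-1, at a ratio of 2.30 over the 10 members, with wago-1 at 369 against 78 reads. The members' share of all protein-coding sense reads was 0.244% in eri-1 and 0.145% in N2.

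In NRDE-3-bound RNA the weights of the members were different. In N2 after cold shock they had 188 antisense reads: 74 of alg-1, 24 of prg-1, 17 each of ergo-1 and ppw-1, 16 of alg-2, 13 of csr-1, 9 of wago-1, 8 of ppw-2, 7 of sago-2 and 3 of rde-1. In eri-1 after cold shock they had 582: 161 of alg-1, 96 of prg-1, 84 of ergo-1, 74 of alg-2, 58 of csr-1, 46 of ppw-2, 36 of wago-1, 12 of ppw-1, 10 of rde-1 and 5 of sago-2. The gene alg-1 was the most-read member in both, with 3.81% and 2.26% of protein-coding genes above it, while in total RNA of N2 35.4% were above it. Together alg-1 and alg-2 held 47.9% (40.5 to 55.3) and 40.4% (36.4 to 44.5) of the members' antisense reads in these 2 libraries, against 1.65% to 3.29% in the 4 total libraries without UV. Per kb of exon, prg-1 stood at 100.7 CPM, alg-1 at 67.3, ergo-1 at 64.3 and alg-2 at 50.0 in eri-1, and alg-1 at 5.72 and prg-1 at 4.66 in N2.

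**Figure D3:**
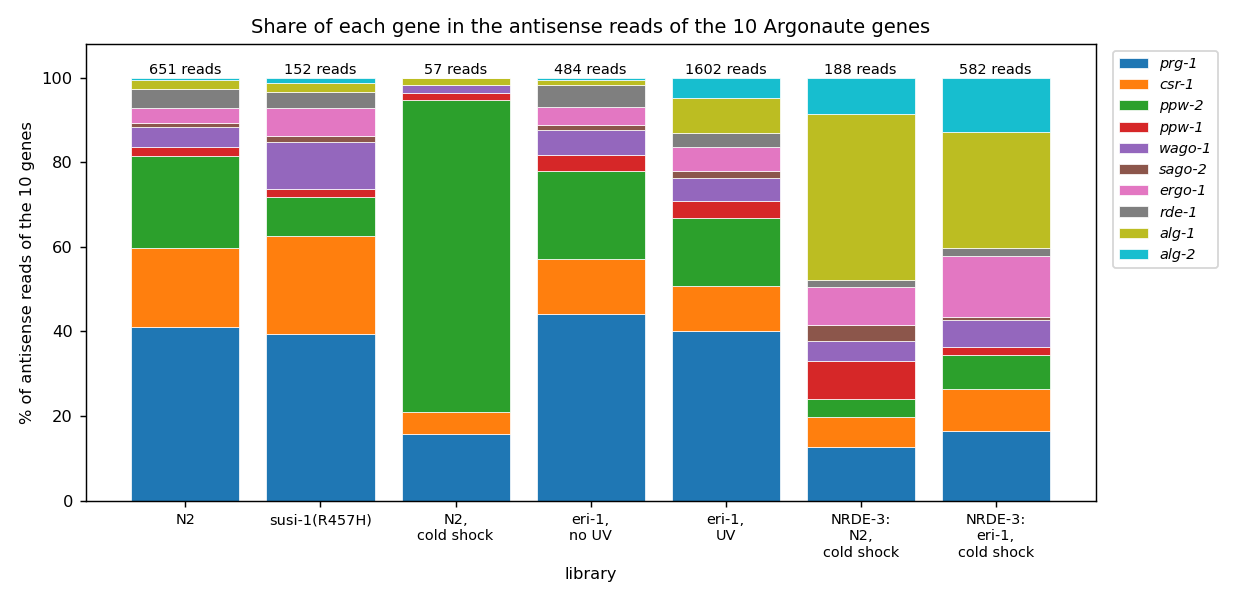
Share of each Argonaute gene (percent) in the antisense reads of the 10 genes in 7 libraries, with the number of reads above each bar. The share of alg-1 and alg-2 together is 2.76% in N2, 13.1% in eri-1 with UV, and 47.9% and 40.4% in the NRDE-3-bound libraries after cold shock.

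The fifth comparison set NRDE-3-bound RNA of eri-1 against N2, both after cold shock and both with the tagged nrde-3. All 6 members with enough reads were called higher in eri-1: ppw-2 by 31.1-fold, ergo-1 by 26.7-fold, alg-2 by 25.0-fold, csr-1 by 24.1-fold, prg-1 by 21.6-fold and alg-1 by 11.8-fold. Of 1280 protein-coding genes 88.6% were called higher and 10.0% lower, so this was again the usual call. All of them but alg-1 had 8 to 24 reads in N2 and reached the minimum through the shallower eri-1 library, so they could be counted only if they were higher there. The summed level was 1628 CPM in eri-1 and 97.2 CPM in N2, a ratio of 16.7 (14.2 to 19.8), which was 1.30 with DESeq2 size factors and 1.31 with TMM factors. With those factors alg-1 stood at ratios of 0.916 and 0.921. Against the median gene, at a log2 ratio of 4.11 over 2831 genes, ppw-2 lay 1.72-fold higher and alg-1 1.47-fold lower.

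The genes ppw-1 and sago-2 had the lowest ratios of the 10 members in this pair, on few reads. The gene ppw-1 had 12 reads in eri-1 and 17 in N2, a ratio of 3.82 (1.66 to 8.48), and lay 4.46-fold below the median gene, with 9.01% of genes at a lower ratio. Its close relative sago-2 had 5 and 7 reads and a ratio of 3.86 (0.967 to 14.1). Both fell under the minimum of 50 reads, as did wago-1 with 36 and 9 reads and rde-1 with 10 and 3.

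**Figure D4:**
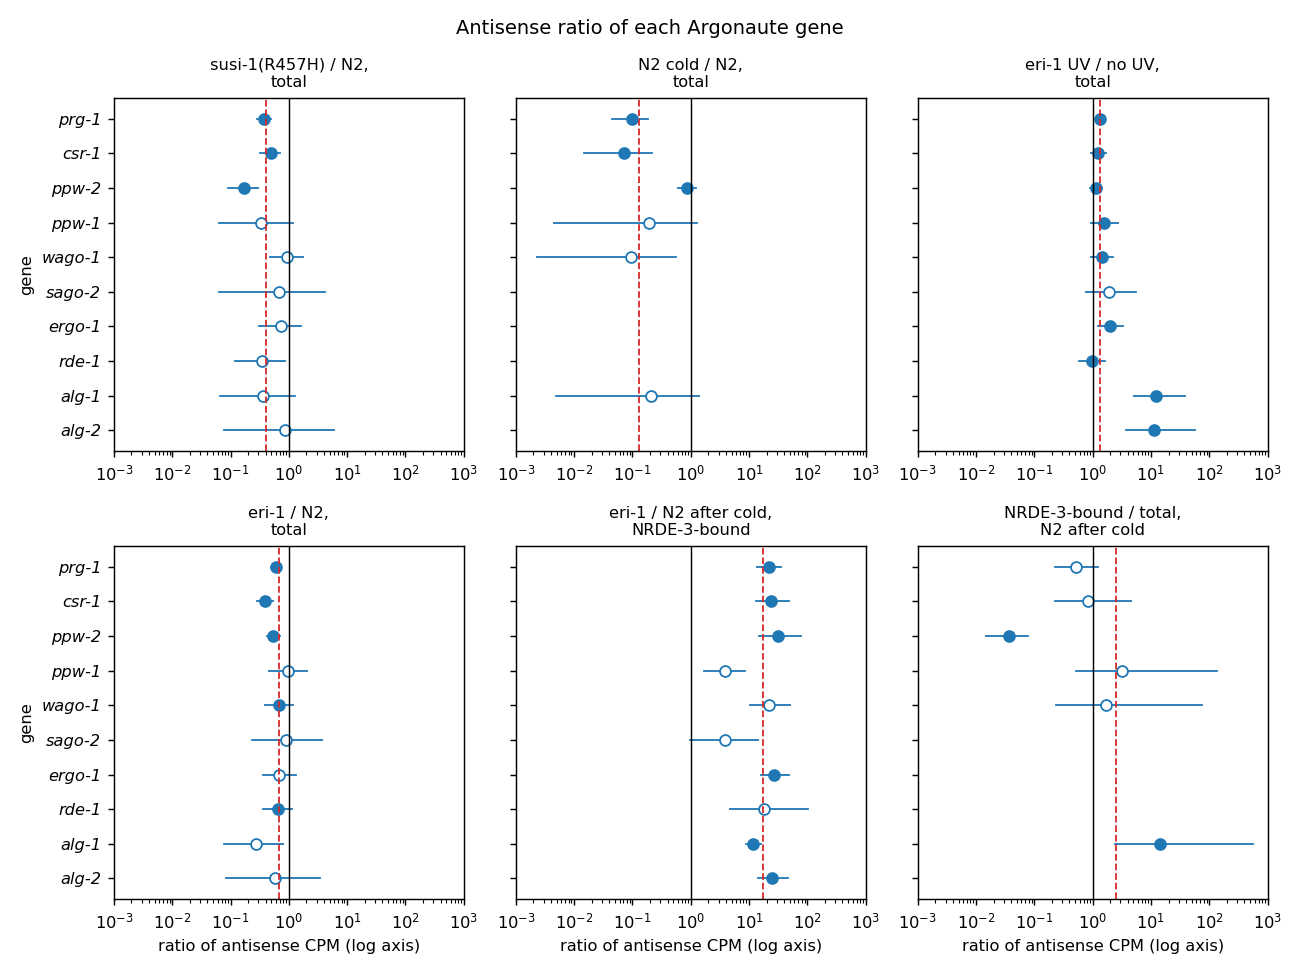
Ratio of antisense CPM (log axis) for each Argonaute gene in 6 comparisons, with exact 95% intervals of counting error; filled points have at least 50 reads in the pair, genes with 0 reads in a library have no point, the solid line marks 1 and the dashed line the median of all protein-coding genes. The genes alg-1 and alg-2 stand right of the dashed line with UV at 12.2 and 11.3, and ppw-2 stands right of it after cold shock at 0.865.

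The sixth comparison set NRDE-3-bound against total RNA in N2 after cold shock, where the pulled-down sample carried the transgene and the total sample's label names none. With 74 reads against 1, alg-1 was called higher, at a ratio of 14.1 (2.46 to 565), and with 8 against 42, ppw-2 was called lower, by 27.5-fold (12.8 to 67.8). The gene alg-1 reached 50 reads through the NRDE-3-bound library and could be counted only if it was higher there. Most of the 50 reads of ppw-2 were the 42 of the total library, which are also its reads in the cold shock comparison. At 8 NRDE-3-bound reads it could be counted only if it was lower in NRDE-3-bound RNA. No other member had 50 reads. Of 458 protein-coding genes 65.9% were called higher and 14.0% lower. As a pair alg-1 and alg-2 had a ratio of 17.2 (3.01 to 686), and the other 8 members, at 98 against 56 reads, had 0.334 (0.238 to 0.472). Summed CPM was 97.2 against 154, a ratio of 0.629 (0.466 to 0.862) whose direction depended on the scaling, from 0.0549 with antisense reads of protein-coding genes to 6.85 with all assigned reads. Against the median gene, at a log2 ratio of 1.31 over 1043 genes, ppw-2 lay 65.0-fold lower, alg-1 3.82-fold higher and prg-1 5.04-fold lower. Of those genes 25.1% had a higher ratio than alg-1 and 4.51% a lower one than ppw-2. The 458 genes with at least 50 reads had a median of 2.50, and alg-1 stood at 3.24.

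In the NRDE-3-bound eri-1 libraries without and with UV no member had an antisense read, so the seventh comparison gave no ratio. For a gene with 0 reads the interval reaches 2.07 CPM without UV and 3.39 CPM with UV. Antisense reads made up 2.15% and 4.53% of all protein-coding reads there, from 384 and 490 of 20535 protein-coding genes. The members' sense reads, 964 and 976, were unevenly placed. Without UV rde-1 had 292, wago-1 348 and ppw-1 86, and csr-1 and ppw-2 had 0. With UV rde-1 had 22, ppw-1 1, csr-1 119 and ppw-2 89. In both libraries prg-1 had no read on either strand.

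For the 3 members with at least 50 antisense reads in 3 or more total libraries, the protein-coding genes of most similar pattern were sought among 832 candidates, by the root mean square difference of centred log2(CPM + 1) values over the 5 total libraries. For prg-1 these were cdk-1 with 0.0642 and lmbr-1 with 0.0645, where the median candidate had 0.541. For csr-1 they were inft-2 with 0.103 and klp-15 with 0.113, beside a median of 0.755. For ppw-2 the nearest were farther off, lin-45 with 0.376 and F07B7.2 with 0.419, beside a median of 1.54. The reads of cdk-1, which encodes a cell cycle kinase, were 139, 29, 4, 110 and 303 in the order used above, and those of lin-45, which encodes a Raf kinase, were 64, 9, 24, 96 and 213.

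Other Argonaute genes were read for comparison from a list of 13. In susi-1(R457H) against N2, where 71.1% of all protein-coding genes were called lower, so were 3 of 3 with enough reads, namely hrde-1, which encodes a nuclear germline Argonaute, by 4.58-fold, wago-2 by 2.58-fold and wago-4, which encodes a germline Argonaute of inherited siRNAs, by 2.51-fold. After cold shock 3 of 3 were called lower, beside 94.3% of all genes. With 11, 10 and 1 reads in the cold library, hrde-1, wago-4 and wago-2 reached the minimum through N2 and could be counted only if lower. With UV 0 of 5 were called, beside 18.9% of all genes called higher and 0.368% lower. In eri-1 against N2, nrde-3 was 63.2-fold higher (28.8 to 173) with 501 against 6 reads, in the strain that carries an nrde-3 transgene. It reached the minimum only through the eri-1 library. In the same pair wago-4 was called lower, by 2.35-fold. Of 5 genes with enough reads there, 1 was called higher and 1 lower, beside 3.23% and 21.8% of all genes. In NRDE-3-bound RNA 3 of 3 were called higher in eri-1, beside 88.6% of all genes. For susi-1(R457H), cold shock and NRDE-3-bound RNA that was the usual call.

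Genes that work beside the microRNA Argonautes were listed as 11 microRNA factors. With UV 2 of 9 with enough reads were called higher, a share near the 18.9% over all protein-coding genes: ain-1 by 2.23-fold (1.56 to 3.27) and ain-2 by 2.32-fold (1.50 to 3.72), which encode partners of ALG-1 and ALG-2 in silencing. The list's median log2 ratio was 0.75 beside 0.40 over all protein-coding genes. After cold shock drsh-1, which encodes the Drosha nuclease, was called higher at a ratio of 13.3 (7.37 to 25.6), from 64 against 14 reads. The 2 others with enough reads, xrn-2 and xrn-1, were called lower, beside 3.50% of protein-coding genes called higher and 94.3% lower. The gene drsh-1 reached 50 reads through the cold library and could be counted only if it was higher there. With 3 and 2 cold reads, xrn-2 and xrn-1 reached 50 through N2 and could be counted only if lower. In eri-1 against N2, 4 of 7 were called lower, beside 21.8% of all genes.

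The remaining pathway lists were called mostly with the bulk of genes. Over all protein-coding genes with enough reads, 71.1% were called lower in susi-1(R457H), 94.3% lower after cold shock and 18.9% higher with UV. In eri-1 against N2, 21.8% were called lower and 3.23% higher in total RNA, and 88.6% higher in NRDE-3-bound RNA. In susi-1(R457H) the factors called lower were 8 of 9 mutator and RNA-dependent RNA polymerase factors, 2 of 3 nuclear RNA interference partners, 5 of 6 germ granule factors, 1 of 3 Dicer and ERI complex factors and the only measured piRNA factor, parn-1, by 3.59-fold. After cold shock every measured gene of these lists was called lower: 6 mutator factors, 5 germ granule factors, 2 nuclear partners, 1 Dicer and ERI factor and 1 piRNA factor. With 3 to 9 cold reads, rrf-2, mut-14, nrde-2, morc-1, parn-1, glh-4, pgl-1 and znfx-1 reached the minimum through N2. At such counts they could be counted only if lower, whereas eri-6 had 47 cold reads. With UV 2 of 12 Dicer and ERI factors, 2 of 15 mutator factors, 1 of 4 piRNA factors, 0 of 7 nuclear partners and 0 of 9 germ granule factors were called higher. In unstressed eri-1 against N2 none of these lists had a gene called higher, and 1 of 7 nuclear partners was called lower. In NRDE-3-bound RNA of eri-1 against N2 the genes called higher were 3 of 3 Dicer and ERI factors, 5 of 5 mutator factors, 3 of 3 nuclear partners, 4 of 5 germ granule factors and 1 of 1 piRNA factor. There dcr-1, which encodes the Dicer nuclease, was 88.3-fold higher (28.5 to 443) on 49 against 3 reads, and it could reach the minimum only by being higher in eri-1.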

How the data were processed

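The deposited files hold whole-number counts of reads per transcript or RNA, split by the authors into sense and antisense columns per the file headers. Bowtie2 is named in the submitters' processing notes, and its role, its version, the genome build and the handling of reads with several matches are not given in the sources used here. Per the labels' protocols, RNA was treated with phosphatase and polynucleotide kinase before ligation, which lets secondary siRNAs with 5′ triphosphates and fragments of longer RNAs enter. The 5 ribosomal RNA tail libraries were not used. Lines without a gene, at most 3 in a library and 0.00052% of reads, were left out.

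Counts were summed by gene, and 44852 of 45510 genes matched Ensembl 115 (WBcel235). Coordinates are those of the matched genes. Ratios of CPM have exact conditional binomial and shares exact binomial (Clopper-Pearson) 95% intervals, and single levels exact Poisson ones. A count of 0 was set to a floor of 3 reads where a fold is given for it. Log2 ratios had 0.5 reads added. The ratio and its interval were tested on simulated data. The members and lists were chosen with earlier results of these data known. All 10 members are named in every library, and of each list at most the 3 most-read genes. Alternatives were 6 other scalings, among them DESeq2 1.42.0 size factors and edgeR 4.0.16 TMM factors, other read minimums and the most-read transcript row. Tools were Python 3.11.15, pandas 2.3.3, scipy 1.17.1, matplotlib 3.10.9 and R 4.3.3.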

Additional observations from a re-analysis of the deposited data

Results flagged for a closer look

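The contrast of eri-1 with N2 gave opposite directions for the summed antisense reads of the 10 Argonaute genes. In total small RNA of unstressed embryos the ratio was 0.563, and in NRDE-3-bound small RNA after cold shock it was 16.7. The difference between these ratios was not tested, and the sample type, the cold shock and the transgene of the N2 library differ between them as well. The median protein-coding gene with at least 20 reads lay in the same direction in each pair, at log2 ratios of −0.53 and 4.11. The size of the summed ratio in NRDE-3-bound RNA depended on the scaling.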

How the results depend on the processing

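Of 168 ratios of single members under another scaling, 116 kept their call and direction, 11 uncalled ones stayed uncalled but turned direction, 21 lost the call, 16 gained one, 5 of those in the other direction, and 4 called ones reversed. The reversed ones were csr-1 in susi-1(R457H), at 1.27 by microRNA reads and 1.11 by protein-coding antisense reads without the 20 most-read genes, a scaling chosen after seeing the data, and alg-1 in NRDE-3-bound eri-1 RNA, at 0.916 by DESeq2 and 0.921 by TMM factors. Summed ratios in susi-1(R457H) were 1.02 by microRNA reads, 0.700 by DESeq2, 0.724 by TMM, 0.784 by protein-coding antisense reads and 0.896 without the 20. After cold shock they were 1.03, 0.700, 0.545, 1.21 and 1.15 in that order. With UV the sum was 3.44 by all assigned reads, in eri-1 against N2 0.437 by microRNA and 0.446 by assigned reads, and in NRDE-3-bound eri-1 RNA 1.30 by DESeq2 and 1.31 by TMM. NRDE-3-bound against total, it was 2.25 by microRNA, 6.85 by assigned and 0.0549 by protein-coding antisense reads, 0.290 without the 20 and 0.424 with the most-read transcript row. Members called lower in susi-1(R457H) went from 3 to 1 by microRNA, DESeq2, TMM and both protein-coding antisense scalings, and to 2 with the most-read row. After cold shock 1 member, ppw-2, was called higher by microRNA, DESeq2 and both protein-coding antisense scalings, and the lower calls were 1 by protein-coding antisense reads and 5 with a minimum of 20 reads or none. With UV 9 members were called higher by assigned reads and 1 with the most-read row. In eri-1 against N2 the lower calls were 3 by microRNA and assigned reads, 0 by DESeq2, TMM and both protein-coding antisense scalings, and 2 with no minimum. In NRDE-3-bound eri-1 RNA 2 were called higher by DESeq2 and TMM, and NRDE-3-bound against total 0 by protein-coding antisense reads and with the most-read row. The scalings moved the log2 ratio of every gene by −0.78 to 1.38 in susi-1(R457H), −1.97 to 2.26 after cold shock, −0.64 to 1.20 with UV, −0.36 to 0.71 in eri-1 against N2, −3.68 to 0.36 in NRDE-3-bound eri-1 RNA and −3.52 to 3.44 NRDE-3-bound against total. The cause of these changes was not tested beyond those shifts. With UV in NRDE-3-bound RNA every member was at 0 and no setting gave a value. Depth limits alg-2, sago-2 and the cold library most, where most members had 0 or 1 read. No paired analysis was possible because each group held 1 library.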

Other observations

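The reads of csr-1 are deposited on 2 transcript rows. The first row, isoform a, held 65 of 121 antisense reads in N2, or 53.7% (44.4 to 62.8), and 26 of 35 in susi-1(R457H), or 74.3% (56.7 to 87.5). In unirradiated eri-1 it held 56.5% (43.3 to 69.0), in irradiated eri-1 48.8% (41.2 to 56.6) and in NRDE-3-bound RNA of cold-shocked eri-1 55.2% (41.5 to 68.3). The interval in susi-1(R457H) overlaps that in N2, the difference was not tested, and how a read was given to 1 of the rows is unknown. The rows of alg-1 split nearly evenly with UV, and in NRDE-3-bound RNA of cold-shocked eri-1 the first held 75 of 161 reads, or 46.6% (38.7 to 54.6).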
